A study of Mus musculus with 30 samples.

Results

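The 10 genes described here encode laminin chains and their basement membrane partners: the laminin alpha chains Lama2, Lama4 and Lama5, the beta chains Lamb1 and Lamb2, the gamma chain Lamc1, the nidogens Nid1 and Nid2, perlecan (Hspg2) and agrin (Agrn). They are 10 of the 55401 gene IDs counted, and the collagens of the basement membrane are not among them. The genes were listed by name around Lamc1, which was chosen by measured values, selected on its low p in SNI against sham mice on saline and in tianeptine against saline among sham mice. Those 2 comparisons are therefore given as descriptions, with no test of the 10 genes.

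Messenger RNA of the nucleus accumbens, part of the ventral striatum, was sequenced from male C57Bl/6J mice, each library holding the punches of both sides of 1 animal (30 libraries). Surgery was a tibial spared nerve injury (SNI), which cuts branches of the sciatic nerve and leaves lasting pain hypersensitivity, or a sham. Treatment began 4 weeks later, as intraperitoneal injections 2 times a day for 3 weeks. The groups were SNI on tianeptine at 30 mg/kg (6 mice), SNI on desipramine at 15 mg/kg (4), SNI on saline (5), sham on tianeptine at 30 mg/kg (6), sham on desipramine at 15 mg/kg (4) and sham on saline (5), which the submitters call the control. Tianeptine is an antidepressant that activates mu opioid receptors, and desipramine is a tricyclic that blocks noradrenaline uptake. All groups, the controls included, had surgery and injections.

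Laminins are trimers of an alpha, a beta and a gamma chain that polymerise into a sheet on the cell surface. Nidogens and perlecan link that sheet to a collagen IV network, and agrin and laminin alpha chains bind dystroglycan and integrins on the cells beside it. In brain the basement membrane lies mainly around blood vessels, made by endothelial cells, mural cells, astrocyte endfeet and, around larger vessels and under the meninges, fibroblasts. The punches are bulk tissue, so fewer cells of a type and less RNA per cell cannot be told apart in any value below.

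The label of the tissue was checked against its markers. The 10 markers of medium spiny neurons, the principal cells of the accumbens, summed to 3254 to 6904 CPM (counts scaled to library size) in every group but SNI desipramine, where the lowest library, replicate 2, had 831. Totals ranged from 24.5 to 37.7 M counts in 24 libraries (replicates 1 to 4) and from 98 to 120.7 M in 6 (replicates 5 and 6, none on desipramine). Library numbers within the first set form unbroken blocks by group, so an effect of that order and of the group cannot be told apart. Several libraries stood apart. The fibroblast and meninges markers summed to 643 CPM in sham saline replicate 3, against at most 226 in any other group. Choroid plexus markers reached 728 CPM in sham tianeptine replicate 6, against at most 78.4 in the other groups. The septal and hypothalamic score, a mean of centred log2 CPM over 12 markers, was 1.62 and 1.58 in SNI desipramine replicates 2 and 3 and ran from -0.91 to 1.29 elsewhere. Where leaving these libraries out moved a value of the 10 genes much, that value is given too. Some fits left out sham saline replicate 2 together with replicate 3, although replicate 2 is not among the far libraries flagged at the end for any of the 10 genes.

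The promoters below are examples: Hspg2, Nid1 and Lamb2 varied together between libraries of a group, and Agrn did not vary with them. Lama2, Lama4 and Lama5 also varied with these genes, and Lamb1 was negative with Nid1 and Lamb2. Each is the 250 bases before the RefSeq start on build GRCm38.p6, 5′ to 3′ on the gene's strand. The RefSeq starts of Hspg2, Nid1 and Lamb2 lie inside the GENCODE spans given further on, so these windows reach into those spans. Capitals mark GC boxes, GGGCGG or its reverse complement CCGCCC, searched on both strands and counted also where they overlap.
Hspg2 (chr4:137468553-137468802, plus strand): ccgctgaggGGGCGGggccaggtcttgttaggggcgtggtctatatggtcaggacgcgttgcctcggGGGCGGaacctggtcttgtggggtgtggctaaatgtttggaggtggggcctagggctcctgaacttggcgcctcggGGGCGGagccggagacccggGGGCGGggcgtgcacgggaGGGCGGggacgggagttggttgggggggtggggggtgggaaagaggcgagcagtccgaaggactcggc
Nid1 (chr13:13437352-13437601, plus strand): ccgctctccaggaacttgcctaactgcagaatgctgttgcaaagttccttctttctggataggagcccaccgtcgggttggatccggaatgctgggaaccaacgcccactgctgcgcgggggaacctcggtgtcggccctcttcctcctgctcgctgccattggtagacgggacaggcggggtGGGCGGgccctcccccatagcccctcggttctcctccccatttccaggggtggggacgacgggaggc
Lamb2 (chr9:108479612-108479861, plus strand): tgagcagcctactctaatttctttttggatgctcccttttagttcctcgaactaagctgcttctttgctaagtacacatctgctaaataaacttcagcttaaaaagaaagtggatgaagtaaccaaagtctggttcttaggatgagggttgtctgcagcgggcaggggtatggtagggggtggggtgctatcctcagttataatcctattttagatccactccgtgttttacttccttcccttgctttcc
Agrn (chr4:156197489-156197738, minus strand): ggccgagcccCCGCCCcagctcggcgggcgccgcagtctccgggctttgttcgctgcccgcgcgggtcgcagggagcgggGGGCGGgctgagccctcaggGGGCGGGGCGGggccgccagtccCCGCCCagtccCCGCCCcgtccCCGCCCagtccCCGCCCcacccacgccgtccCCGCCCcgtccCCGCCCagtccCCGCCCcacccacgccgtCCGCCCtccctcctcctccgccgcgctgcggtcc

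The Agrn window shown was the richest in the motif of the 8 windows that RefSeq gives for 7 of the 10 genes, with 12 GC boxes and 83.6% G and C bases. Of all 32851 windows of this length, 0.0152% held at least 12. RefSeq gives Agrn another start, and that window (chr4:156186260-156186509) had 2 GC boxes, a number reached by 16.7% of all windows, and 60.8% G and C. The Hspg2 window had 5 GC boxes, a number reached by 1.93% of all windows, the Lama5 window had 4, and the Nid1 window had 1. Lamb2 had none in a window of 43.6% G and C, below the median of 52.4%. At least 1 GC box was in 6 of the 8 windows and in 32.7% of all windows, and the letters TATAAA were in 0 of the 8 and in 12.4% of all. The 3 genes shown that varied together thus ran from 5 GC boxes to none. Of the genes not shown, Lama2, which varied with them, had 0 and Lamb1, which did not, had 2. Lamc1, Lama4 and Nid2 were not in the promoter table.

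Per kb of merged exon, Agrn was by far the most abundant of the 10, with 29.8 ± 2.82 CPM per kb (SD, n = 30), and it was above the next gene in 30 of 30 libraries. Lamc1 (5.52 ± 0.676), Lamb1 (5.21 ± 1.12) and Lamb2 (4.76 ± 1.30) followed and their order was not settled: Lamc1 was above Lamb1 in 13 of 30 libraries and Lamb1 above Lamb2 in 20. Lama5 came next at 1.89 ± 0.267 CPM per kb, below Lamb2 in 30 libraries and above Nid2 (1.39 ± 0.329) in 29. Hspg2 (1.11 ± 0.390), Nid1 (1.09 ± 0.444) and Lama2 (1.004 ± 0.215) had levels per kb within each other's spread. Lama4, with 0.593 ± 0.168 CPM per kb, was lowest in every library by this length. With the longest transcript as the length, Lamb1 was second at 8.94 CPM per kb, Lama2 sixth at 1.71, Lama4 ninth at 1.18 and Hspg2 last at 1.12, with Lama4 above Hspg2 in 19 of 30 libraries. The order below Agrn thus depends in part on the length used. The 10 genes together took 0.041 to 0.0617% of a library's counts.

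The genes lie on 8 chromosomes of mm10, in the annotation GENCODE M21, as Lama2 at 10:26980036-27619758 (minus strand), Lama4 at 10:38965515-39110188 (plus), Lama5 at 2:180176373-180225859 (minus), Lamb1 at 12:31265234-31329644 (plus) and Lamb2 at 9:108479736-108490530 (plus). Lamc1 is at 1:153218922-153332786 (minus), Nid1 at 13:13437551-13512269 (plus), Nid2 at 14:19751265-19811787 (plus), Hspg2 at 4:137468769-137570630 (plus) and Agrn at 4:156165290-156197488 (minus). Exons of Nid2 share 437 bp, 8.45% of their length, with Rtraf on the other strand, and Rtraf had 65938 counts over all libraries against 10197 of Nid2. Whether the counting used strand is not stated, so the Nid2 values are less certain. Rtraf itself averaged 50.7 ± 2.09 CPM in SNI desipramine mice and 48.0 ± 2.71 CPM in sham desipramine mice (SD, n = 4 each). Lama2 and Nid1 share 631 and 143 bp of exon with antisense transcripts that had 579 and 741 counts.

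**Figure D1:**
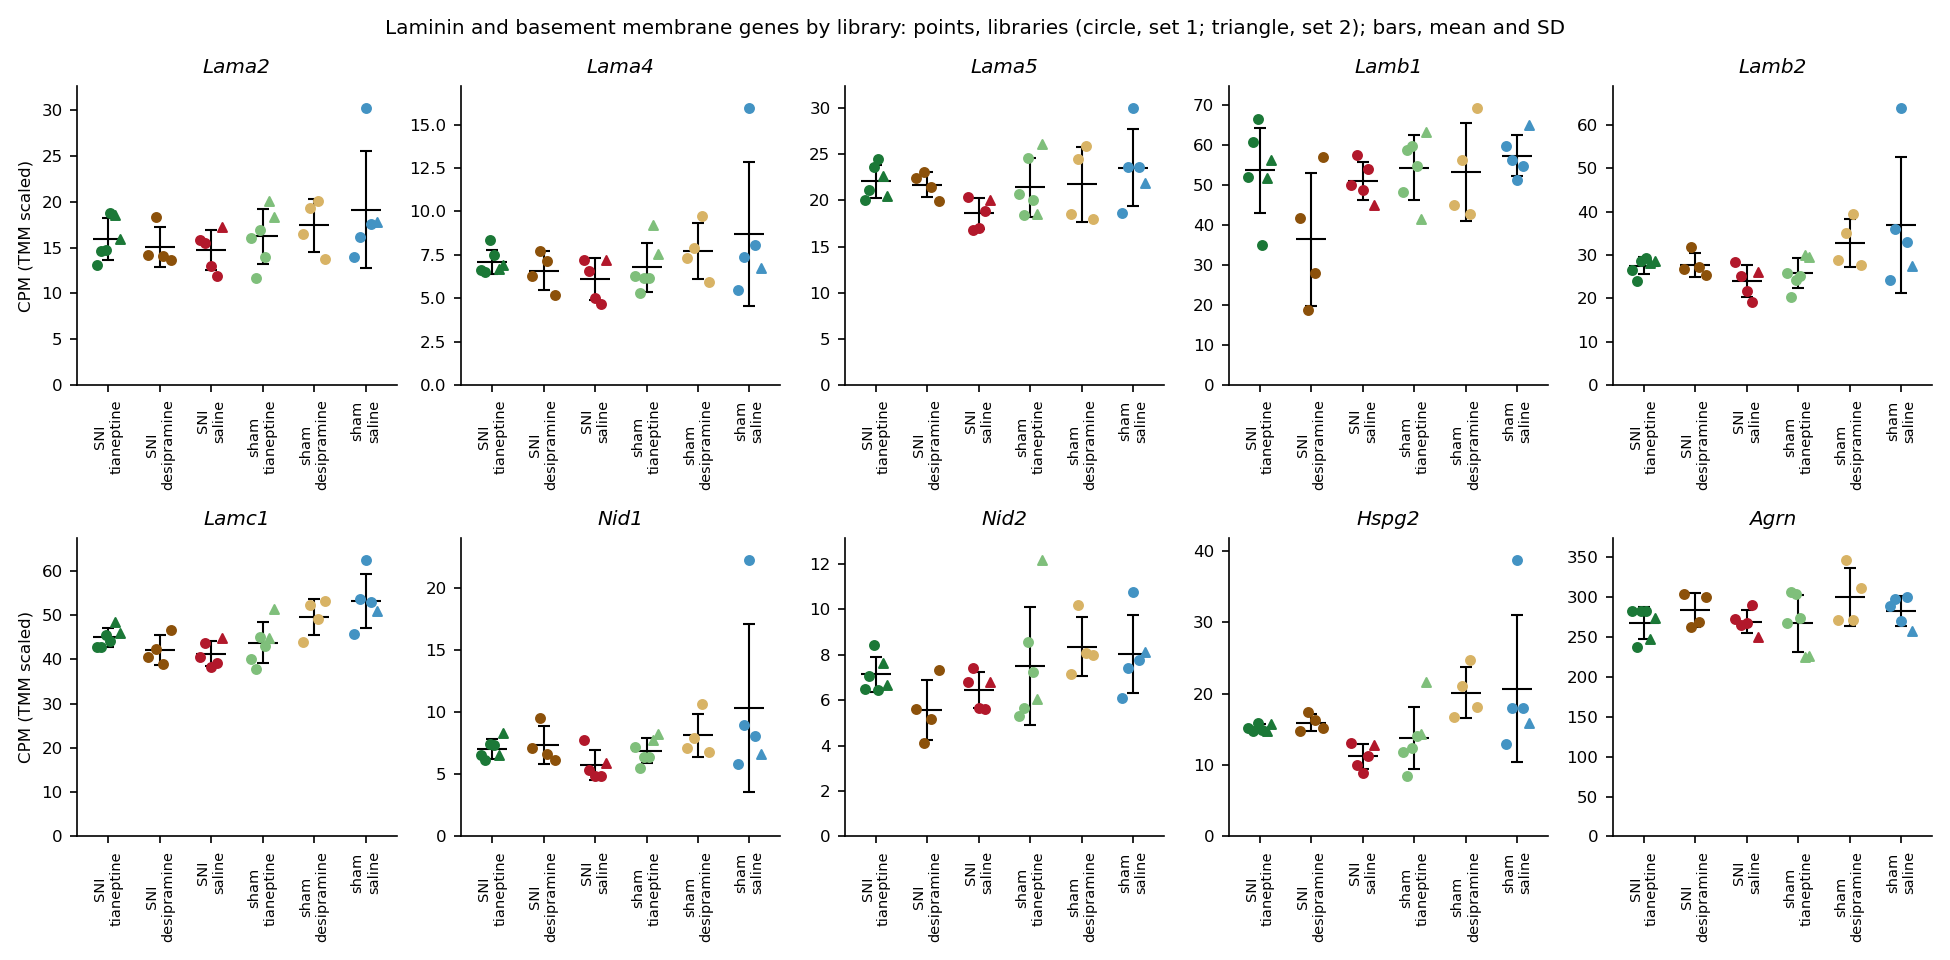
CPM of each of the 10 genes (y axis, from 0) in every library by group, with circles for the 24 libraries of the first set, triangles for the 6 of the second, and bars for the group mean and SD. Sham saline replicate 3 lies far above its group for Hspg2 (38.8 CPM), Nid1 (22.3), Lamb2 (63.9), Lama2 (30.2) and Lama4 (15.95), and Lamb1 is at 18.9 and 28.1 CPM in SNI desipramine replicates 2 and 3.

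Nerve injury on saline is the comparison that the choice of Lamc1 used, and all values here are descriptions. Lamc1, the gamma chain shared by most laminin trimers, had 40.6, 43.7, 38.3, 39.2 and 44.7 CPM in SNI saline mice, against 45.7, 53.5, 62.5, 52.9 and 51.0 CPM in sham saline mice. The highest SNI library lay below the lowest sham one. The log2 fold change was -0.37 ± 0.07 (SE), the smallest p of 23736 genes tested. In all 10 genes the fitted level was lower in SNI saline mice, with a median log2 fold change of -0.38 against 0.00 over all genes, where 49.4% of genes were lower. An unadjusted p under 0.05 was found for 7 of the 10, with 9.74% of all genes, and an adjusted one for 0, with 0%. Since the p of this comparison entered the choice, these counts are no test and nothing is read from them.

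The other chains differed among themselves in this comparison. Hspg2, the heparan sulphate proteoglycan perlecan, had 13.1, 10.1, 8.91, 11.2 and 12.8 CPM in SNI saline mice, against 12.95, 17.99, 38.8, 17.96 and 15.9 CPM in sham saline mice, a log2 fold change of -0.90 ± 0.22. Nid1, a nidogen that bridges laminin and collagen IV, had 7.75, 5.39, 4.89, 4.86 and 5.94 CPM in SNI saline mice, against 5.85, 9.0, 22.3, 8.08 and 6.64 CPM in sham saline mice, a log2 fold change of -0.85 ± 0.25. For Hspg2 the groups overlapped at their edges. For Nid1 they overlapped further, with sham saline replicates 1 and 5 inside the SNI saline range. In both genes sham saline replicate 3 was the highest library by a wide margin. Lamb2, the beta chain of vascular and synaptic laminins, had 28.3, 25.2, 21.7, 19.1 and 26.0 CPM in SNI saline mice, against 24.2, 36.1, 63.9, 32.9 and 27.5 CPM in sham saline mice. The groups overlapped, and the log2 fold change was -0.62 ± 0.18. The alpha chains had log2 fold changes of -0.39 ± 0.16 for Lama2, the alpha chain of muscle laminin, -0.52 ± 0.21 for the endothelial Lama4 and -0.34 ± 0.12 for Lama5. Nid2 was at -0.32 ± 0.18, Lamb1 at -0.17 ± 0.20 and Agrn at -0.07 ± 0.07.

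Vascular and fibroblast markers were also at lower fitted levels, and none of them passed. Of the markers, 15 of 15 endothelial, 12 of 12 mural and 14 of 14 fibroblast and meninges genes had lower fitted levels in SNI saline than in sham saline mice, with medians on the log2 scale of -0.42, -0.37 and -1.39. Of them, 12, 9 and 11 had an unadjusted p under 0.05 by edgeR, with 9.74% of all genes. This comparison entered the choice of Lamc1, so the marker counts of this paragraph are descriptions and no test. The endothelial markers summed to 252 to 348 CPM in SNI saline mice and to 310 to 487 CPM in sham saline mice. Fibroblast and meninges markers summed to 49.2 to 127 CPM in SNI saline mice and 53.7 to 643 CPM in sham saline mice. With the endothelial score as a term of the model, the median log2 fold change of the 10 genes was -0.11, with 7 lower and 3 higher, Hspg2 at -0.22 and Lamc1 at -0.19. With the fibroblast and meninges score it was -0.24, with 10 lower. Without sham saline replicates 2 and 3 all 10 were again lower but the median was -0.20, Nid1 was at -0.24, Hspg2 at -0.45, Lamb2 at -0.21 and Lamc1 at -0.25. Leaving out replicate 3 alone left Nid1 at -0.36, Hspg2 at -0.53, Lamb2 at -0.32, Lama4 at -0.17, Lama2 at -0.14, Nid2 at -0.18 and Lamc1 at -0.29. Within the first set of libraries the median was -0.45, with Lamc1 at -0.42. The second set holds 1 library of each of these groups. Neuronal markers differed as well: 11 of 12 septal and hypothalamic markers were higher in SNI saline mice (median 0.64, 4 with an unadjusted p under 0.05), while 10 of 10 medium spiny neuron and 6 of 6 cortical markers were lower (medians -0.40 and -0.56, 0 with an unadjusted p under 0.05). With the septal and hypothalamic score in the model the median of the 10 genes was -0.37, and the part of the other 2 lists was not tested.

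**Figure D2:**
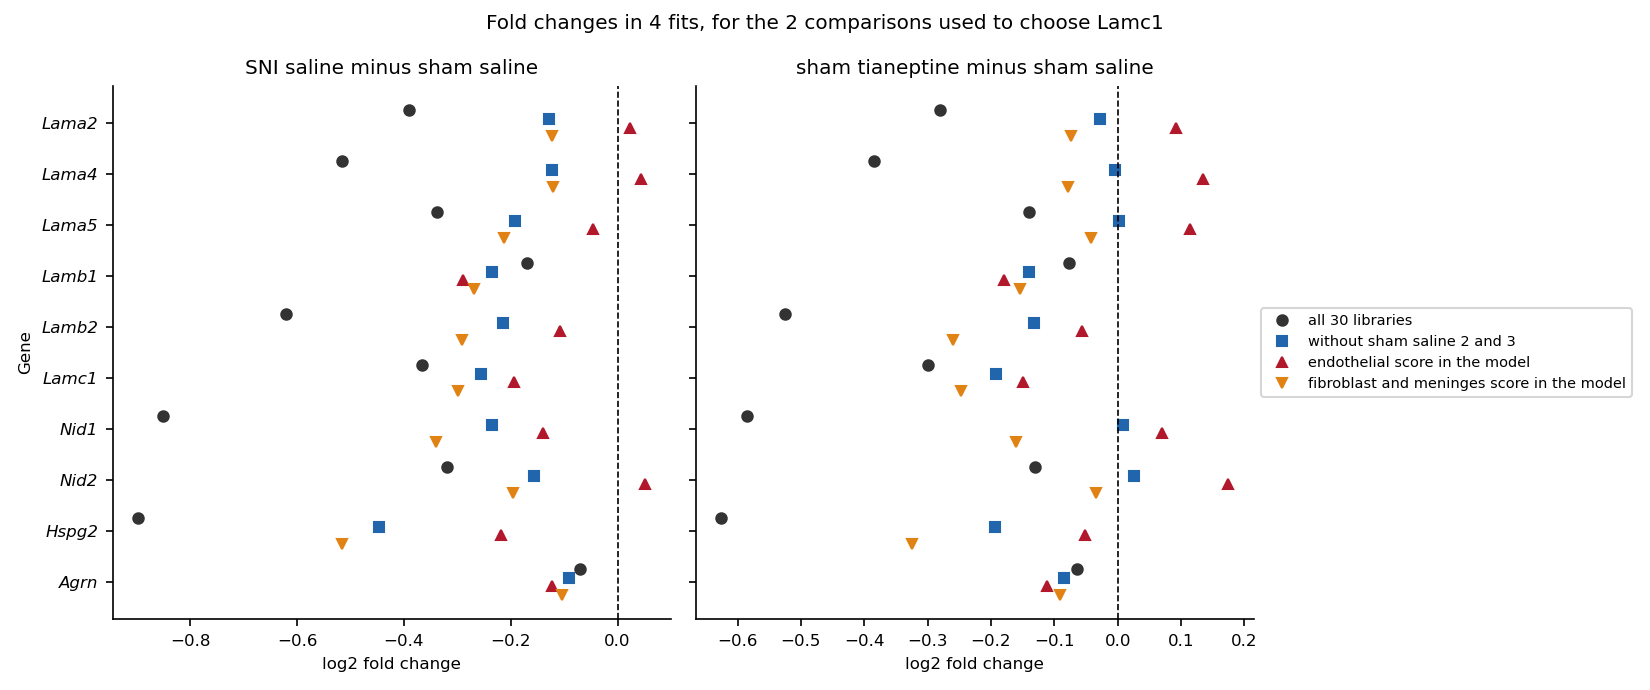
Log2 fold change (x axis) of each gene in SNI saline against sham saline (left) and in sham tianeptine against sham saline (right), from all 30 libraries, without sham saline replicates 2 and 3, and with the endothelial or the fibroblast and meninges score in the model. Hspg2 is at -0.90 in SNI saline against sham saline with all libraries and at -0.22 with the endothelial score, while Agrn stays between -0.12 and -0.07 in that comparison.

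Tianeptine in sham mice is the other comparison that the choice used, and it shares the sham saline libraries with the one before. Lamc1 had 37.9 to 51.3 CPM with a median of 44.0 in sham tianeptine mice, against the 45.7 to 62.5 CPM of sham saline mice given above. The groups overlapped through sham tianeptine replicate 6, which had 51.3 CPM. The log2 fold change was -0.30 ± 0.07, the third smallest p of all genes. Again the fitted level of all 10 genes was lower on tianeptine, with a median of -0.29 against 0.00 over all genes. An unadjusted p under 0.05 was found for 4 of the 10 (6.84% of all genes) and an adjusted one for 0 (0%), counts that are again no test. Hspg2 was at -0.63 ± 0.21, Nid1 at -0.59 ± 0.24, Lamb2 at -0.53 ± 0.17, Lama4 at -0.38 ± 0.20 and Lama2 at -0.28 ± 0.16. Lama5 (-0.14), Nid2 (-0.13), Lamb1 (-0.08) and Agrn (-0.06) were nearer to 0. The same marker lists were lower, 15 of 15 endothelial, 12 of 12 mural and 14 of 14 fibroblast and meninges genes, as were 10 of 10 medium spiny neuron (median -0.21), 7 of 8 microglia (-0.22) and 6 of 6 cortical markers (-0.90). Choroid plexus markers were higher in 9 of 9 (median 1.44) and septal and hypothalamic markers in 12 of 12 (0.90). None of these passed after adjustment. The choroid plexus score was 4.07 in sham tianeptine replicate 6 and -0.637 to 0.345 in the rest of that group, against -0.74 to 0.329 in sham saline mice. With the septal and hypothalamic score in the model the median of the 10 genes was -0.26, with 8 lower and 2 higher, and the part of the medium spiny neuron, cortical, microglia and choroid plexus lists was not tested. Without sham saline replicates 2 and 3 the median of the 10 was -0.06, with 7 lower and 3 higher, and with the endothelial score it was 0.01, with 5 lower and 5 higher. Leaving out replicate 3 alone left Hspg2 at -0.27, Lamb2 at -0.24, Nid1 at -0.11, Lama4 at -0.05, Lama2 at -0.04, Lama5 at -0.04 and Nid2 at 0.00. Lamc1 was at -0.19 without both libraries and at -0.15 with the endothelial score. Within the first set of libraries the median was -0.40.

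Nerve injury on desipramine uses no library that entered the choice of Lamc1, so all 10 genes were tested. Of the 10, 0 passed at an adjusted p under 0.05 in edgeR's quasi-likelihood test, while 3 (Lamc1, Nid2 and Lamb1) had an unadjusted p under 0.05. Of all 23736 genes, 11.3% passed after adjustment and 27.6% before it. All 10 genes had lower fitted levels in SNI than in sham mice on desipramine, with a median log2 fold change of -0.23 against 0.01 over all genes, of which 49.0% were lower. Lama5 was lower only by name, at -0.002. With limma-voom or a replicate block 9 were lower and 1 higher, and with the endothelial score 8 were lower and 2 higher (median -0.09). The genes vary with each other, so these directions are not separate observations.

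Lamc1 had 40.5, 42.2, 39.0 and 46.6 CPM in SNI desipramine mice, against 43.9, 52.1, 49.2 and 53.1 CPM in sham desipramine mice. All 4 SNI values were below the sham mean of 49.6 CPM, and the groups overlapped between SNI replicate 4 and sham replicate 1. The log2 fold change was -0.24 ± 0.08, with a 95% interval of -0.40 to -0.07 and an adjusted p of 0.0619 by edgeR. Nid2, the second nidogen, had 5.64, 4.12, 5.17 and 7.33 CPM in SNI desipramine mice, against 7.14, 10.2, 8.10 and 8.01 CPM in sham desipramine mice. All 4 SNI values were below the sham mean of 8.36 CPM, and SNI replicate 4 alone reached into the sham range. Its log2 fold change was -0.59 ± 0.21 (95% interval -1.02 to -0.16, adjusted p = 0.0648 by edgeR). DESeq2, with the same design, put both past the threshold, with adjusted p values of 0.0408 for Lamc1 and 0.0401 for Nid2, and limma-voom put 0 of the 10 past it. Over all 44 alternatives the adjusted p ran from 0.0141 to 0.669 for Lamc1 and from 0.0131 to 0.686 for Nid2, and the fold changes of both were negative throughout.

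Lamb1, the beta chain of the most widespread laminins, had 41.9, 18.9, 28.1 and 57.1 CPM in SNI desipramine mice, against 45.04, 56.2, 42.8 and 69.3 CPM in sham desipramine mice. SNI replicates 1, 2 and 3 were below every sham library, replicate 1 by a small margin, and replicate 4 was inside the sham range. The log2 fold change was -0.55 ± 0.23, with an interval of -1.01 to -0.08 and an adjusted p of 0.112 by edgeR. Without SNI replicates 2 and 3 it was -0.12. Without SNI replicate 4 it was -0.87 with an adjusted p of 0.00392, and Lamc1 (-0.31, adjusted p = 0.0141) and Nid2 (-0.77, adjusted p = 0.0131) passed in the same edgeR fit. The adjusted p of Lamb1 ran from 0.00392 to 0.886 over the 44 alternatives. Regional markers differed between these libraries. The medium spiny neuron score was -0.19, -2.56, -0.67 and 0.44 in SNI desipramine replicates 1 to 4, against -0.38 to 0.58 in sham desipramine mice. All 12 septal and hypothalamic markers were higher in SNI than in sham desipramine mice, and 6 of them passed. With the septal and hypothalamic score in the model Lamb1 was at -0.36, Nid2 at -0.35 and Lamc1 at -0.15, and 0 of the 10 had an unadjusted p under 0.05. In that fit 0 of all genes passed, as without SNI replicates 2 and 3.

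The remaining 7 genes had adjusted p values of 0.387 or more by edgeR. Hspg2 averaged 15.96 ± 1.154 CPM in SNI desipramine mice and 20.2 ± 3.57 CPM in sham desipramine mice (SD, n = 4 each), a log2 fold change of -0.34 ± 0.24 with an interval of -0.84 to 0.16. Lamb2, Lama4, Lama2 and Nid1 lay between -0.24 and -0.14. Lama5 averaged 21.7 ± 1.37 CPM in SNI desipramine mice and 21.7 ± 4.05 CPM in sham desipramine mice, with an interval of -0.27 to 0.27. Agrn was at -0.08 ± 0.08, with an interval of -0.25 to 0.09. The endothelial markers were lower in 14 of 15 and the fibroblast and meninges markers in 14 of 14, with medians of -0.14 and -1.07. With the fibroblast and meninges score in the model, 5 of the 10 genes were lower and 5 higher and Lamb1, Nid2 and Lamc1 were at -0.66, -0.46 and -0.17.

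**Figure D3:**
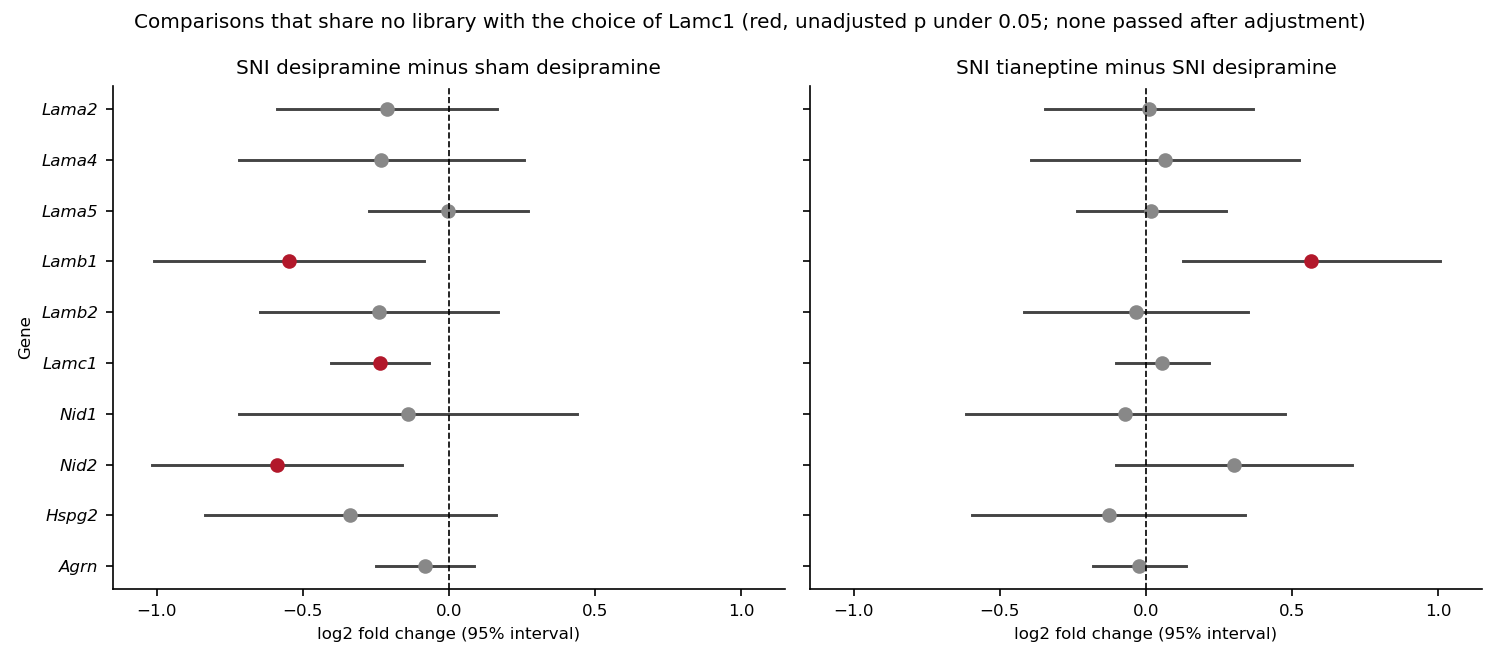
Log2 fold change with its 95% interval (x axis) of each gene in SNI desipramine against sham desipramine (left) and in SNI tianeptine against SNI desipramine (right), with red points for an unadjusted p under 0.05. On the left all 10 points are below 0 and the intervals of Lamb1, Lamc1 and Nid2 exclude 0, and on the right the interval of Lamb1 alone does.

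Tianeptine against desipramine among injured mice also compares groups that were in neither comparison of the choice, with the same limit for the spread of Lamc1. Lamb1 had 35.1 to 66.5 CPM with a median of 54.2 in SNI tianeptine mice, against 41.9, 18.9, 28.1 and 57.1 CPM in SNI desipramine mice. Of the SNI tianeptine libraries 5 of 6 were above the SNI desipramine mean of 36.5 CPM, and the groups overlapped. The log2 fold change, tianeptine over desipramine, was 0.56 ± 0.21 (95% interval 0.12 to 1.01, adjusted p = 0.131 by edgeR). It was 0.13 without SNI desipramine replicates 2 and 3, and 0.88 with an adjusted p of 0.00455 by edgeR without replicate 4, and the adjusted p reached 1 in other alternatives. All 10 medium spiny neuron markers were higher on tianeptine, with a median log2 fold change of 0.58, and their part in the result was not tested. The other 9 genes had intervals that included 0 and adjusted p values of 0.386 or more. Nid2 was at 0.30 ± 0.20, Lamc1 at 0.05 ± 0.08 with an interval of -0.10 to 0.21, Hspg2 at -0.13 ± 0.23 and Agrn at -0.02 ± 0.08. In all, 0 of the 10 passed after adjustment by edgeR, DESeq2 or limma-voom and 1 before it by edgeR, against 1.33% and 21.5% of all genes. The drugs were given at 30 and 15 mg/kg, and their doses are not matched.

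The comparisons that follow each share libraries with the choice of Lamc1, which is therefore only described in them, and the other 9 genes were tested. DESeq2 and limma-voom also put 0 of the 9 past the threshold in each of them. Among injured mice, tianeptine against saline shares the SNI saline libraries. All 10 genes had higher fitted levels in SNI tianeptine mice, with a median of 0.15 against 0.00 over all genes. Hspg2 had 14.7 to 15.9 CPM with a median of 15.1 in SNI tianeptine mice, against 8.91 to 13.1 CPM in SNI saline mice. The groups did not overlap, and its log2 fold change was 0.42 ± 0.21 with an adjusted p of 1 by edgeR. Lama5, the alpha chain of mature vascular basement membrane, had 20.1 to 24.5 CPM with a median of 21.9 in SNI tianeptine mice, against 20.4, 16.8, 17, 18.9 and 20.1 CPM in SNI saline mice, a log2 fold change of 0.24 ± 0.11. It was the 1 gene of the 9 with an unadjusted p under 0.05 (2.87% of all genes), and 0 passed after adjustment (0%). Lamc1 was at 0.11 ± 0.07.

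Desipramine against saline among injured mice shares the same SNI saline libraries. Hspg2 had 14.9, 17.4, 16.3 and 15.3 CPM in SNI desipramine mice, all above the highest SNI saline library at 13.1 CPM. Its log2 fold change was 0.55 ± 0.23, with an adjusted p of 0.226 by edgeR. Lamb1 went the other way, at -0.49 ± 0.22 with an adjusted p of 0.241. These were the 2 of the 9 genes with an unadjusted p under 0.05 (17.5% of all genes), and 0 passed after adjustment (0%). Lamb1 was at -0.06 without SNI desipramine replicates 2 and 3, at -0.29 without replicate 2 alone, and at -0.81 without replicate 4, where it passed with an adjusted p of 0.0129 by edgeR (up to 1 in other alternatives). The endothelial markers were higher in 14 of 15 and the septal and hypothalamic markers in 11 of 12 (median 0.63). Medium spiny neuron markers were lower in 10 of 10 (median -0.39) and cortical excitatory neuron markers in 6 of 6 (-1.36), and the part of the neuronal markers in the result was not tested beyond the septal and hypothalamic score, with which Lamb1 was at -0.38. In sham mice, desipramine against saline shares the sham saline libraries: 8 of the 10 genes were lower and 2 higher, the log2 fold changes ran from -0.35 (Nid1) to 0.09 (Nid2), and 0 of the 9 passed before (7.63%) or after (0%) adjustment. Without sham saline replicates 2 and 3, 1 was lower and 9 higher.

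In mice on tianeptine, injury against sham shares the sham tianeptine libraries. The 10 genes lay between -0.07 (Nid2) and 0.15 (Hspg2), 3 lower and 7 higher, and 0 of the 9 tested passed before (1.21%) or after (0%) adjustment. Hspg2 averaged 15.2 ± 0.485 CPM in SNI tianeptine mice and 13.8 ± 4.36 CPM in sham tianeptine mice (SD, n = 6 each), with a log2 fold change of 0.15 and an interval of -0.26 to 0.55. Choroid plexus markers were lower in 9 of 9 in SNI tianeptine mice (median -1.63), and without sham tianeptine replicate 6, where they were highest, Hspg2 was at 0.31 and Nid2 was at 0.12. Among sham mice, tianeptine against desipramine shares the same libraries and gave Hspg2 11.8, 8.52, 12.5, 14.02, 14.4 and 21.6 CPM on tianeptine, against 16.7, 21.1, 24.8 and 18.1 CPM on desipramine. Replicate 6 on tianeptine was the 1 library that overlapped, and 5 of 6 were below every desipramine library. Its log2 fold change, tianeptine over desipramine, was -0.61 ± 0.23 with an adjusted p of 0.307 by edgeR, and -0.75 with an adjusted p of 0.0189 without sham tianeptine replicate 6 and sham saline replicates 2 and 3 (up to 0.880 in other alternatives). It was the 1 gene of the 9 tested with an unadjusted p under 0.05 (12.1% of all genes), and 0 passed after adjustment (0.0716%). Lamc1 was at -0.22 ± 0.08. Of the endothelial markers 14 of 15 were lower on tianeptine.

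The difference between the tianeptine effects in injured and in sham mice was positive for all 10 genes, with a median of 0.39 on the log2 scale against 0.00 over all genes. It is built from the libraries of both comparisons that the choice used, with their signs reversed: SNI saline and sham tianeptine enter with a minus and sham saline with a plus. A positive sign thus follows in part from the choice, also in genes that vary with Lamc1. The signs and the count of unadjusted p values here are descriptions and no test. Hspg2 (1.04 ± 0.29), Nid1 (0.88 ± 0.34), Lamb2 (0.71 ± 0.24) and Lama5 (0.38 ± 0.16) had an unadjusted p under 0.05, with 4.20% of all genes, and 0 passed after adjustment (0%), all with an adjusted p of 0.989 by edgeR. Lamc1 was at 0.41 ± 0.10. Without sham saline replicates 2 and 3 the median was 0.23, and with the endothelial score it was 0.11, with 3 genes negative and 7 positive. The same difference for desipramine was positive for 7 genes and negative for 3, from -0.38 ± 0.30 (Lamb1) to 0.71 ± 0.38 (Nid1). Of the 9 genes tested, 0 had an unadjusted p under 0.05 (12.3% of all genes) and 0 an adjusted one (0%). Without sham saline replicates 2 and 3 its median was -0.01, with 5 genes negative and 5 positive.

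**Figure D4:**
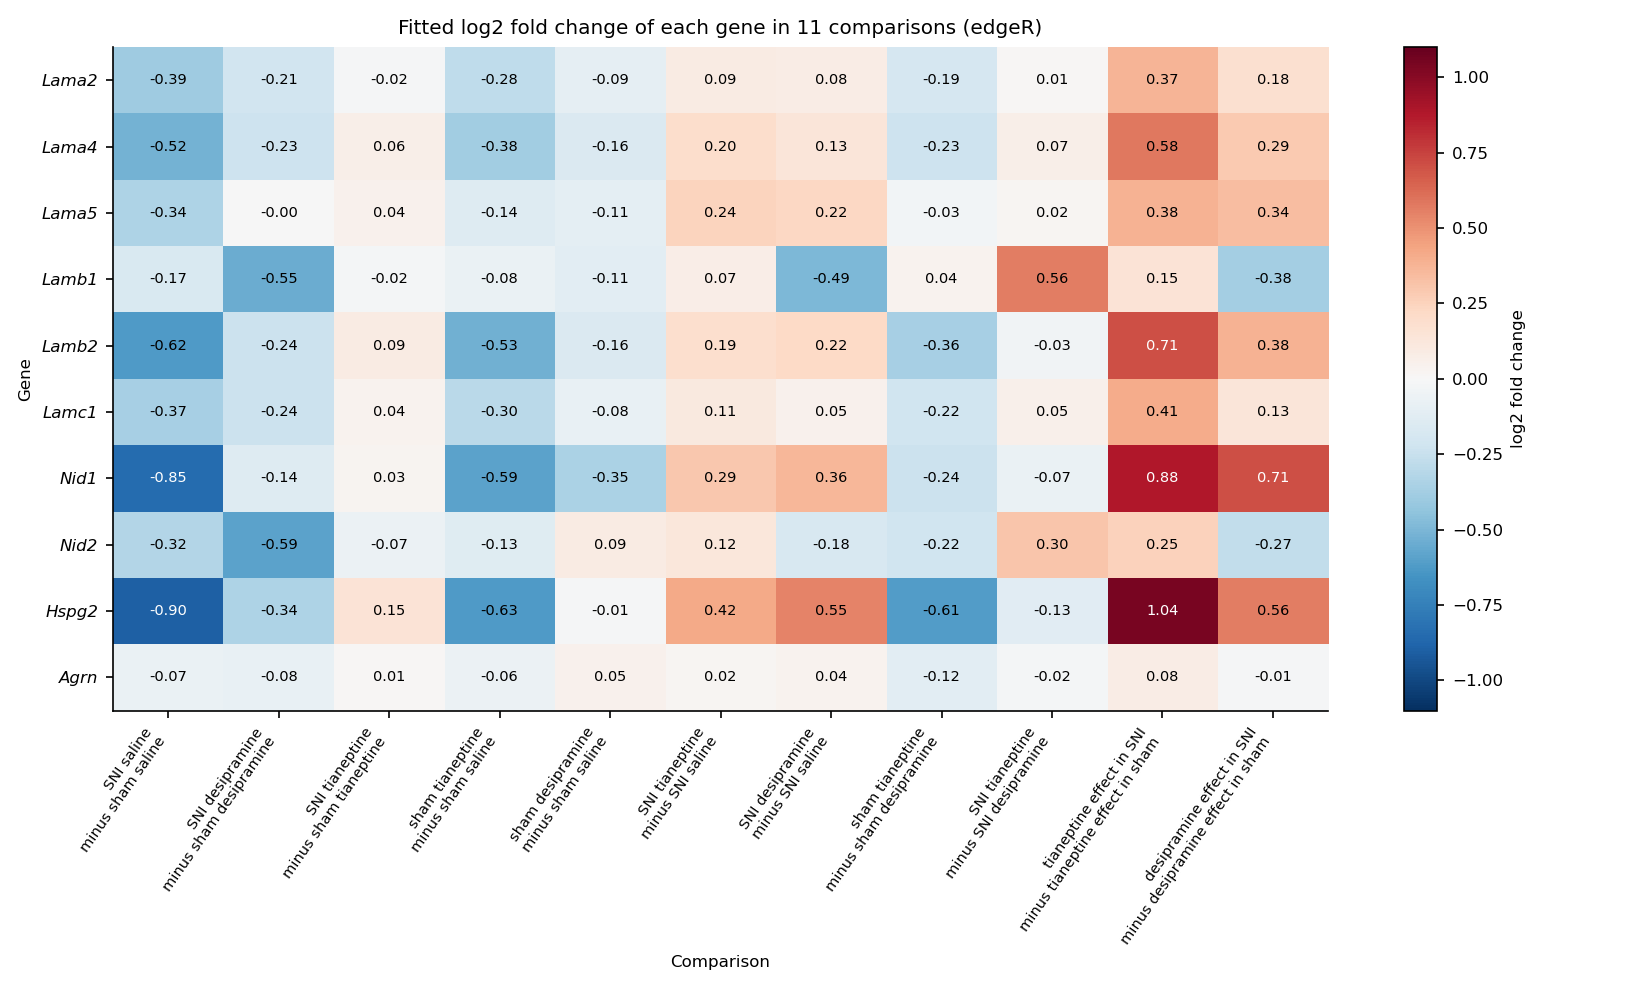
Fitted log2 fold change of each gene (rows) in 9 comparisons of groups and 2 differences of drug effects (columns), blue where the group named first is lower and red where it is higher. Agrn stays within 0.12 of 0 in every column, Hspg2 spans -0.90 to 1.04, and Lamb1 has its values furthest from 0 in the 4 columns with SNI desipramine mice.

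Between libraries of the same group, the genes fell into patterns. The choice of Lamc1 used no correlation. The p it used rests on the spread of Lamc1 within groups of these same libraries, so the Lamc1 values here share libraries with that choice. For each gene and marker score the group and library set means were removed, and the residuals were correlated over 30 libraries, with p from 100000 permutations within groups and library sets adjusted over the 100 pairs. Of these, 29 pairs passed with a positive and 2 with a negative correlation by both Pearson's r and Spearman's rho. The endothelial and the mural scores each passed with 8 of the 10 genes, the fibroblast and meninges score with 6, and those of microglia, oligodendrocytes, choroid plexus and septal and hypothalamic neurons with 0. Residuals of 1 library share its depth and its dissection, and the marker scores vary with each other.

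Hspg2 had the highest r of the 10 genes with both vascular scores. Its r was 0.902 with the mural score (rho = 0.769, permutation p adjusted to 0.00025 for r and 0.000857 for rho) and 0.828 with the endothelial score (rho = 0.784, permutation p adjusted to 0.00111 and 0.00147). Without the 2 libraries farthest from the median score, r was 0.805 and 0.772. Lamb2, Nid1 and Lama4 went with the fibroblast and meninges score at r of 0.875, 0.873 and 0.884 (rho of 0.785, 0.782 and 0.782, all with a permutation p adjusted to 0.000833 or less), and r was 0.789, 0.8 and 0.780 without the farthest 2. They went with the mural score as well, at r of 0.883, 0.883 and 0.829 (0.742, 0.746 and 0.650 without the farthest 2). All of them also passed with the endothelial (r of 0.778, 0.724 and 0.710) and astrocyte scores (0.733, 0.719 and 0.714), so no single score was set apart. Lama5 went with the mural score, at r of 0.875 (rho = 0.862, permutation p adjusted to 0.00025 and 0.00075) and 0.849 without the farthest 2. It passed at lower r with the endothelial (0.719) and fibroblast and meninges scores (0.562). Lama2 went with the mural, fibroblast and astrocyte scores at r of 0.818, 0.804 and 0.743 (rho of 0.754, 0.720 and 0.686, permutation p adjusted to 0.00216 or less), with 0.661, 0.670 and 0.636 without the farthest 2. It passed at lower r with the endothelial (0.698) and cortical scores (0.529).

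Lamc1 was tied to the mural score at r of 0.737 (rho = 0.647, permutation p adjusted to 0.00705 and 0.00882) and to the endothelial score at 0.703 (rho = 0.636, adjusted to 0.0110 and 0.0236), with 0.560 and 0.615 without the farthest 2. Its r with the fibroblast and meninges score was 0.510, which did not pass (permutation p adjusted to 0.155). Of all genes, the 5 whose residuals were most like those of Lamc1 over the 30 libraries were Pecam1 (r = 0.828), an endothelial adhesion molecule, Pdgfrb (0.824), the PDGF receptor of mural cells, Rcsd1 (0.790), Nid2 (0.788) and Myl12a (0.786), a regulatory myosin light chain. Pecam1 and Pdgfrb are in the marker lists, and Nid2 is among the 10 genes.

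Lamb1 stood apart from the other chains. Its r was 0.897 with the medium spiny neuron score (rho = 0.834, permutation p adjusted to 0.00025 and 0.00075), and 0.811 without SNI desipramine replicates 2 and 4, the libraries farthest from the median. With the astrocyte score r was -0.671 (rho = -0.772, permutation p adjusted to 0.000333 and 0.00107). Its correlations with the endothelial (-0.216), mural (-0.193) and fibroblast scores (-0.318) did not pass. Nid2 passed with the medium spiny neuron score (r = 0.574, rho = 0.600, permutation p adjusted to 0.0200 and 0.0254) as well as with the endothelial (r = 0.567, rho = 0.501, permutation p adjusted to 0.0360 and 0.0445) and mural scores (r = 0.586, rho = 0.537, permutation p adjusted to 0.0201 and 0.0314). Without the farthest 2, r was 0.463, 0.419 and 0.455. Agrn passed with the astrocyte score alone, at r of -0.395 (rho = -0.463, permutation p adjusted to 0.0344 and 0.0255) and -0.387 without the farthest 2. Agrn varied little, with a coefficient of variation within groups of 5.47 to 13.3%, but so did Lamc1 (4.7 to 11.4%), and Lama5 was near (6.31 to 18.6%). Hspg2 ran from 3.19 to 49.8% and Nid1 from 11.3 to 65.4%, both highest in sham saline mice, the group of the far replicate 3.

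**Figure D5:**
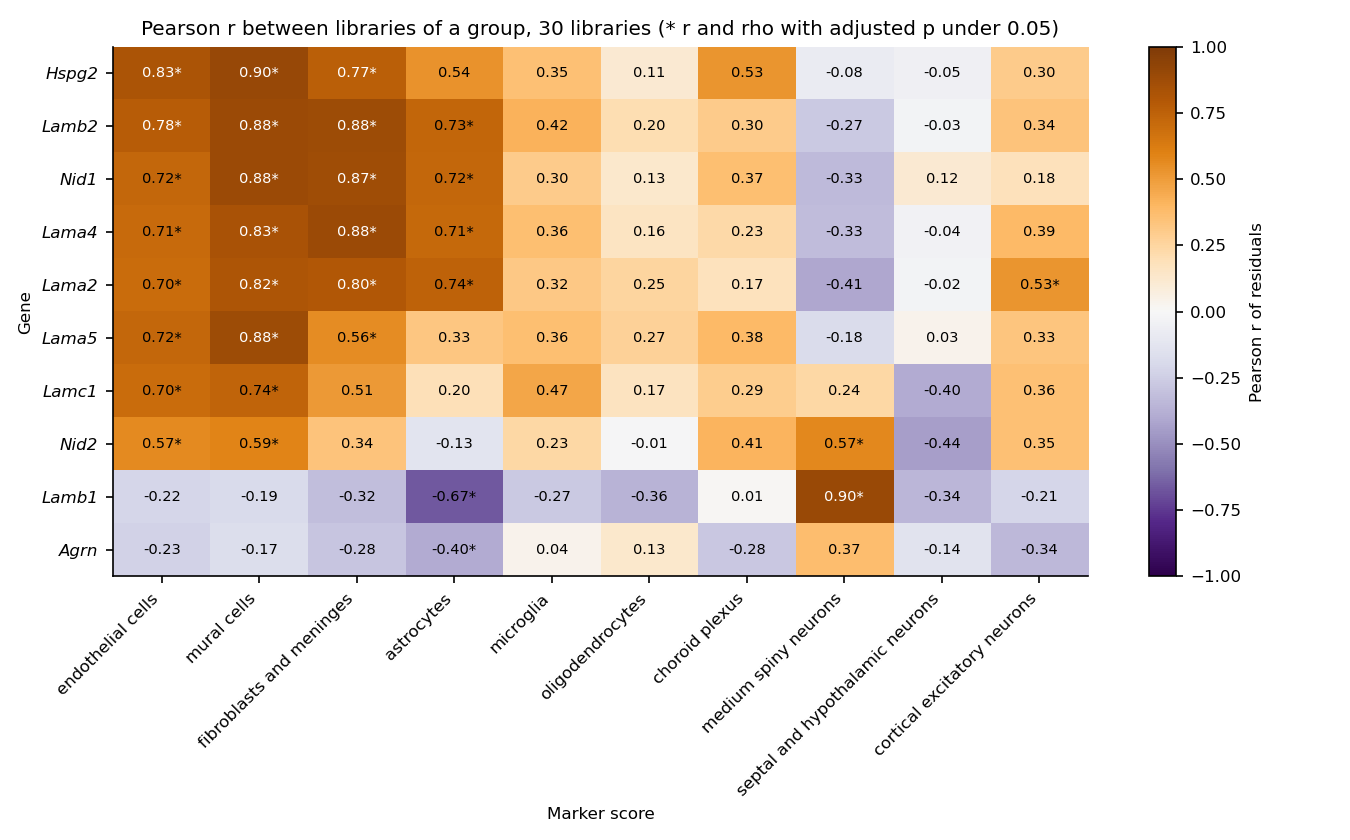
Pearson r over 30 libraries between the residuals of each gene (rows) and of each marker score (columns), with stars where both r and rho passed after adjustment over the 100 pairs. The upper 8 rows are positive with the endothelial and mural scores (r of 0.567 to 0.902), Lamb1 is at 0.897 with the medium spiny neuron score, and Agrn has no r above 0.372.

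Among the 45 pairs of the 10 genes, 19 passed with a positive and 4 with a negative correlation by both measures, with permutation p values adjusted over the 45. Lama2, Lama4, Lama5, Lamb2, Nid1 and Hspg2, grouped after their values were seen, had r of 0.649 to 0.958 with each other, and Nid1 and Lamb2 were the most alike (rho = 0.939). Lamc1 was most like Nid2 among the 10 (r = 0.788, rho = 0.764, 0.739 without the farthest 2, permutation p adjusted to 0.000450 and 0.000975). Lamb1 was negative with Lama2 (r = -0.490, rho = -0.491), Lama4 (-0.450, -0.467), Lamb2 (-0.368, -0.438) and Nid1 (-0.368, -0.402), the 4 negative pairs that passed, with permutation p values adjusted to 0.0483 or less. Nid2 was positive with Lamb1 (r = 0.518, rho = 0.503, permutation p adjusted to 0.0287 and 0.0470) and with Lamc1. It also passed with Hspg2 (r = 0.595, rho = 0.458, permutation p adjusted to 0.0244 and 0.0483) and with Lama5 (r = 0.574, rho = 0.522, permutation p adjusted to 0.0246 and 0.0392). Its r of 0.330 with Nid1, 0.410 with Lamb2, 0.344 with Lama2 and 0.326 with Lama4 did not pass.

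The other genes of the laminin and basement membrane system were counted by list, beside the same counts over all genes (11.3% called in injury on desipramine and 1.33% in tianeptine against desipramine among injured mice). In SNI against sham mice on desipramine, 0 of 8 basement membrane collagens passed. Of 11 other basement membrane proteins, Sparc, a collagen-binding matricellular protein, rose by 1.72 ± 0.38 on the log2 scale (adjusted p = 0.00861 by edgeR), and Pxdn, the peroxidase that crosslinks collagen IV, fell by 0.59 ± 0.15 on the log2 scale (adjusted p = 0.0143 by edgeR). Of 11 receptors, the laminin-binding integrin chains Itga3 (0.77 ± 0.18, adjusted p = 0.0113) and Itga6 (0.39 ± 0.11, adjusted p = 0.0189) rose by edgeR. Of 12 dystroglycan glycosylation enzymes, Ispd rose by 0.37 ± 0.10 (adjusted p = 0.0243 by edgeR) and Pomk, a mannose kinase of the dystroglycan glycan, fell by 0.16 ± 0.05 (adjusted p = 0.0472 by edgeR). The 9 dystrophin complex genes and the 12 matrix proteases and inhibitors had 0 calls. The septal and hypothalamic markers were higher in the same comparison, and 0 genes passed with that score in the model, without SNI desipramine replicate 2, or when these 2 groups alone were fitted.

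In tianeptine against desipramine among injured mice, Col4a2, a chain of the collagen IV network, was lower on tianeptine (-0.49 ± 0.11, adjusted p = 0.0332 by edgeR), the only call of the 8 collagens. The receptors Itga6 (-0.41 ± 0.10, adjusted p = 0.0423) and Itga7 (-0.78 ± 0.20, adjusted p = 0.0453), another laminin-binding integrin chain, were lower by edgeR, 2 of 11. The other basement membrane proteins, the dystroglycan glycosylation enzymes, the dystrophin complex and the matrix proteases and inhibitors had 0 calls, among them Sparc (-1.05 ± 0.35, adjusted p = 0.0944). Both comparisons share the SNI desipramine libraries, so their values for Itga6 and Sparc are not independent of each other. The vascular endothelial growth factor receptor Kdr, 1 of the 15 endothelial markers, was lower on tianeptine as well (-0.54 ± 0.14, adjusted p = 0.0453 by edgeR). The number of genes called in this comparison, 315 in all, was 1 with the septal and hypothalamic score in the model, 0 without SNI desipramine replicates 2 and 3, and 0 when these 2 groups alone were fitted.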

How the data were processed

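Polyadenylated RNA was extracted with TRIzol and made into libraries with a stranded mRNA kit, per the labels' protocols. Per the submitters' processing notes, Trim Galore, HISAT2, SAMtools and featureCounts were used with build mm10; versions and strand setting are not stated there. The deposited tables hold whole-number counts and FPKM for 55401 gene IDs. The authors' deposited FPKM equal the counts divided by the library total and the whole gene span, introns included, for 43516 of 43516 IDs compared (within 1 bp), and were used only for that check. Symbols came from GENCODE M21: 54349 IDs matched exactly, 792 without the version number and 260 not at all; 7 of the 10 genes matched exactly and 3 without the version.

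The counts were tested in edgeR 4.0.16 (R 4.3.3, limma 3.58.1) with a robust quasi-likelihood fit, TMM scaling and filterByExpr, which kept 23736 genes, all 10 among them, with 99.925% of the counts. The model held 1 term per group and 1 for the library set, with 23 residual degrees of freedom. Tests were 2-sided, with Benjamini-Hochberg adjustment over all genes kept and a threshold of 0.05. An SE is the size of the log2 fold change divided by the root of its F statistic. Levels are TMM-scaled CPM, and log2 CPM used a prior count of 2. DESeq2 1.42.0 and limma-voom were alternatives. The fits were first tested on simulated counts. No library was a near copy of another of its group (smallest chi-square per degree of freedom 7.51). The genes, the lists and the libraries left out were chosen with earlier results of these data known. All 10 genes are named in every comparison; of the other lists, genes past the threshold and up to 3 of smallest p could be named. Promoter sequences are from RefSeq. The other laminin chains and netrins are not reported here.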

Additional observations from a re-analysis of the deposited data

Results flagged for a closer look

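In 5 of the 60 sets of 1 gene in 1 group, a library lay so far from the others of its group that its gap to the nearest exceeded the 95% limit of Dixon's test for that group size; chance flags about 1 set in 20. Of the 5, 4 were in sham saline replicate 3, the library with the most fibroblast and meninges marker RNA, and all 4 were high: Hspg2 at 38.8 CPM, Lama2 at 30.2, Nid1 at 22.3 and Lama4 at 16. The fifth was Lama2 in SNI desipramine replicate 2, the library lowest in medium spiny neuron markers, at 18.3 CPM against 13.7 to 14.2 in the other 3.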

How the results depend on the processing

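Of 4840 fold changes of the 10 genes refitted under alternatives, 187 moved by more than their standard error with no call gained, and 14 gained a call. Of the 10 genes 0 passed in every comparison. That count changed in SNI against sham on desipramine to 2 with DESeq2 (Lamc1, Nid2), 1 without sham saline replicates 2 and 3 (Lamc1), 2 when sham tianeptine replicate 6 was left out as well (Lamc1, Nid2), and 0 to 3 when each library was left out in turn. Without SNI desipramine replicate 4 the 3 were Lamb1, Lamc1 and Nid2, without sham desipramine replicate 1 or sham saline replicate 3 the 1 was Lamc1, and without sham tianeptine replicate 6 it was Nid2. In sham tianeptine against sham desipramine, 1 passed (Hspg2) without those 3 libraries together. Leaving out 1 library gave 0 to 1 in SNI desipramine against SNI saline and in SNI tianeptine against SNI desipramine, in both Lamb1 without SNI desipramine replicate 4. In the other comparisons all alternatives gave 0. The cause was not tested.

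Over all genes, SNI against sham on desipramine called 2682, but 0 with the septal and hypothalamic score, without SNI desipramine replicates 2 and 3 or with the 2 groups fitted alone, 1701 with no filter on low counts, and from 0 (without SNI desipramine replicate 2) to 5903 (without replicate 4) when 1 library was left out. SNI tianeptine against SNI desipramine called 315, but 1247 with DESeq2, 101 with limma-voom, 937 with the fibroblast and meninges score, 605 with no library set term, 79 with no filter on low counts, 65 with the endothelial score, 27 in the first set, 1 with the septal and hypothalamic score, 0 without SNI desipramine replicates 2 and 3 or with the 2 groups alone, and 0 to 4825 when 1 library was left out (0 without SNI desipramine replicate 2 or 3 or SNI tianeptine replicate 2 or 3). Where edgeR called 0, DESeq2 called 555 genes in SNI desipramine against SNI saline, and the alternatives reached 3352 there and 957 for the difference between the desipramine effects. Sham tianeptine against sham desipramine called 17, and 0 to 152 under alternatives. The deviations of same-numbered libraries of different groups had r of both signs (60 pairs, r of -0.635 to 0.413, 16 over 0.1), and the numbers were not treated as pairs. Differently numbered libraries were not compared, so whether equal numbers share a batch was not tested. With a replicate block in place of the library set, 0 of the 10 genes passed in any comparison, Lamc1 in SNI against sham on desipramine was at -0.23, and the calls over all genes there were 2378 and in SNI tianeptine against SNI desipramine 41. The fibroblast and meninges score as a term was chosen after seeing the data. With 4 to 6 mice a group, a miss of the threshold does not show that levels were alike. With all groups in 1 fit, an edgeR p sets a group difference against a spread estimated over all 30 libraries, not over the compared groups alone.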
